A study of Homo sapiens with 12 samples.

Results

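The genes described here are 9 factors of base excision repair and DNA single-strand break repair, and they were chosen by gene symbol. They are the glycosylases OGG1, UNG and MUTYH, the apurinic/apyrimidinic (AP) endonucleases APEX1 and APEX2, and the gap-filling and ligation factors POLB, XRCC1, LIG3 and APTX. All 9 symbols were found among the 25365 rows of the deposited expression table, and all 9 were among the 11881 genes that averaged 1 FPKM or more and entered the tests. FPKM (fragments per kilobase, scaled to library size) takes account of transcript length, so levels can be compared between genes.

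RNA was sequenced from A549 cells, an epithelial line from a human lung adenocarcinoma, to ask whether loss of PARP3 or exposure to pyridostatin changed transcription. Pyridostatin is a small molecule that binds and stabilizes G-quadruplex (G4) DNA, a structure formed by guanine-rich strands. Wild-type and PARP3-/- cells were each kept for 24 h with vehicle (DMSO) or with pyridostatin at 1 μM, and 3 replicates in each of the 4 groups gave 12 libraries. The PARP3-/- cells were made by CRISPR-Cas9 cutting and grown out by serial dilution, so genotype and clone cannot be told apart. The p-values measure the spread between these cultures of 1 wild-type line and 1 deletion line. In bulk RNA, fewer cells that express a gene and less RNA per cell cannot be told apart.

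Base excision repair removes small base lesions such as uracil and oxidized guanine. A glycosylase cuts out the damaged base, an AP endonuclease nicks the strand at the empty site, DNA polymerase beta fills the gap, and DNA ligase III with its scaffold XRCC1 seals it. The later steps are shared with the repair of single-strand breaks, and a longer repair patch can be made instead by the replication polymerases with FEN1 and LIG1.

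Several properties of the libraries bear on the values. The libraries labelled PARP3-/- had no less PARP3 transcript than wild type (4.41 ± 0.447 against 3.73 ± 0.293 FPKM with vehicle and 4.58 ± 0.245 against 3.79 ± 0.243 FPKM with pyridostatin, SD, n = 3), and the mean difference was 0.21 on the log2 scale (adjusted p = 0.0154). A deletion that disables a reading frame need not lower its transcript, so the level of PARP3 does not check the labels. The authors showed the deletion in the first exon of PARP3 by Sanger sequencing. Replicate 2 of wild type with vehicle stood apart. Its shorter genes were higher and its longer genes lower than in the other libraries of its group, with a gap of 0.27 on the log2 scale between the shortest and the longest genes by quartile, while this gap ran from −0.032 to 0.039 in the 9 libraries of the other groups. Read depth was approximately 24000000 to 33900000 reads per library, estimated from the steps between the lowest FPKM values. Of the 5 epithelial markers, KRT8 and KRT18 were abundant in all libraries, at 2207 FPKM or more, while EPCAM was at 0.879 to 2.36 FPKM. By genotype, averaged over treatments, 4 of these 5 were called, where 19.1% of all tested genes were called. KRT19 was higher in PARP3-/- (0.85 on the log2 scale, adjusted p = 6.58e-07), and EPCAM (−0.50), CDH1 (−0.47) and KRT18 (−0.24) were lower. The alveolar markers NKX2-1, SFTPB and SFTPC summed to 0.145 FPKM at most. The summed level of the 3 blood cell markers was 2.81 to 4.42 FPKM in wild type and 4.37 to 6.26 FPKM in the libraries labelled PARP3-/-, nearly all of it CD14, with CD3E at 0 in every library. The 3 fibroblast markers summed to 0.600 to 1.01 FPKM in wild type and 1.22 to 1.67 FPKM in PARP3-/-. Nearly all of this was COL1A1, with COL3A1 at 0.04 FPKM at most and DCN at 0.038 FPKM at most. The 2 endothelial markers summed to at most 0.375 FPKM.

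Since pyridostatin acts on guanine-rich DNA, the promoters of these genes were read for runs of guanine. The windows are RefSeq sequences of GRCh38.p14 and reach from 250 bases before to 50 bases after a start. There were 12 windows for 8 of the 9 genes, and POLB was not among them. The search pattern for a potential G4 was 4 runs of at least 3 guanines with 1 to 7 bases between them, on either strand. It was found in 2 of the 12 windows (16.7%), compared with 25.0% of the 35116 promoter windows of all genes and 34.0% of the 12680 windows of tested genes. The 2 windows belonged to UNG and XRCC1, and their sequences are shown because transcripts of both genes were lower with pyridostatin. A link between the guanine pattern and the differences with pyridostatin was not tested. In UNG the matches lay at the second of its 2 starts, 575 bases downstream of the first. The first start is known to give the nuclear form of the enzyme and the second the mitochondrial form, and the FPKM of UNG does not separate them. On the plus strand at chr12:109098052-109098117, upstream of the second start, the first match is in capitals, and a second capital block marks the letters of an E2F-type motif. On the same strand at chr12:109098130-109098159, inside the first exon of a GENCODE transcript of UNG, all letters belong to the second match. On the minus strand at chr19:43575520-43575541, across the start of XRCC1, the capitals are the complement of guanine runs on the other strand.
UNG upstream piece: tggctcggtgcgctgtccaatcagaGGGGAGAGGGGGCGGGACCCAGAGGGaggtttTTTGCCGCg
UNG second match: GGGGACGCGGTGGGGCGGGTCTGGCGGGGG
XRCC1 match: CCCCGCCCCCTCCCACTCTCCC

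The E2F-type motif was searched on both strands as TTTCCCGC, TTTCGCGC, TTTGCCGC or TTTGGCGC, the letters bound by the E2F factors that drive S-phase genes. It did not overlap either guanine-rich match in UNG. It was found in 1 of the 12 windows (8.33%), compared with 3.32% of all windows and 5.13% of those of tested genes. Among 41 windows of other genes of the same repair pathways, 17.1% held it and 31.7% held the guanine pattern. These matches describe the letters and do not show binding or a folded structure.

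The levels of the 9 genes spanned a wide range in A549 cells. With vehicle in wild type, APEX1, the main AP endonuclease, was the highest at 162 ± 13.0 FPKM (SD, n = 3). It was followed by UNG, which removes uracil, at 59.3 ± 1.33 FPKM, and by the second AP endonuclease APEX2 at 31.8 ± 2.43 FPKM. APTX, which removes adenylate groups left by failed ligation, was at 23.4 ± 2.17 FPKM, and the scaffold XRCC1 was at 23.2 ± 0.187 FPKM. LIG3 was at 16.1 ± 1.33 FPKM, POLB at 13.3 ± 1.19 FPKM and OGG1, which removes oxidized guanine, at 10.8 ± 1.42 FPKM. MUTYH, which removes adenine mispaired with oxidized guanine, was the lowest at 5.54 ± 0.286 FPKM. The libraries of neighbouring genes in this order overlapped for APTX and XRCC1 and for POLB and OGG1 with vehicle in both genotypes, and for no neighbours with pyridostatin. XRCC1 varied least over the 12 libraries, with a coefficient of variation of 4.70%, and UNG varied most, at 11.6%.

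**Figure D1:**
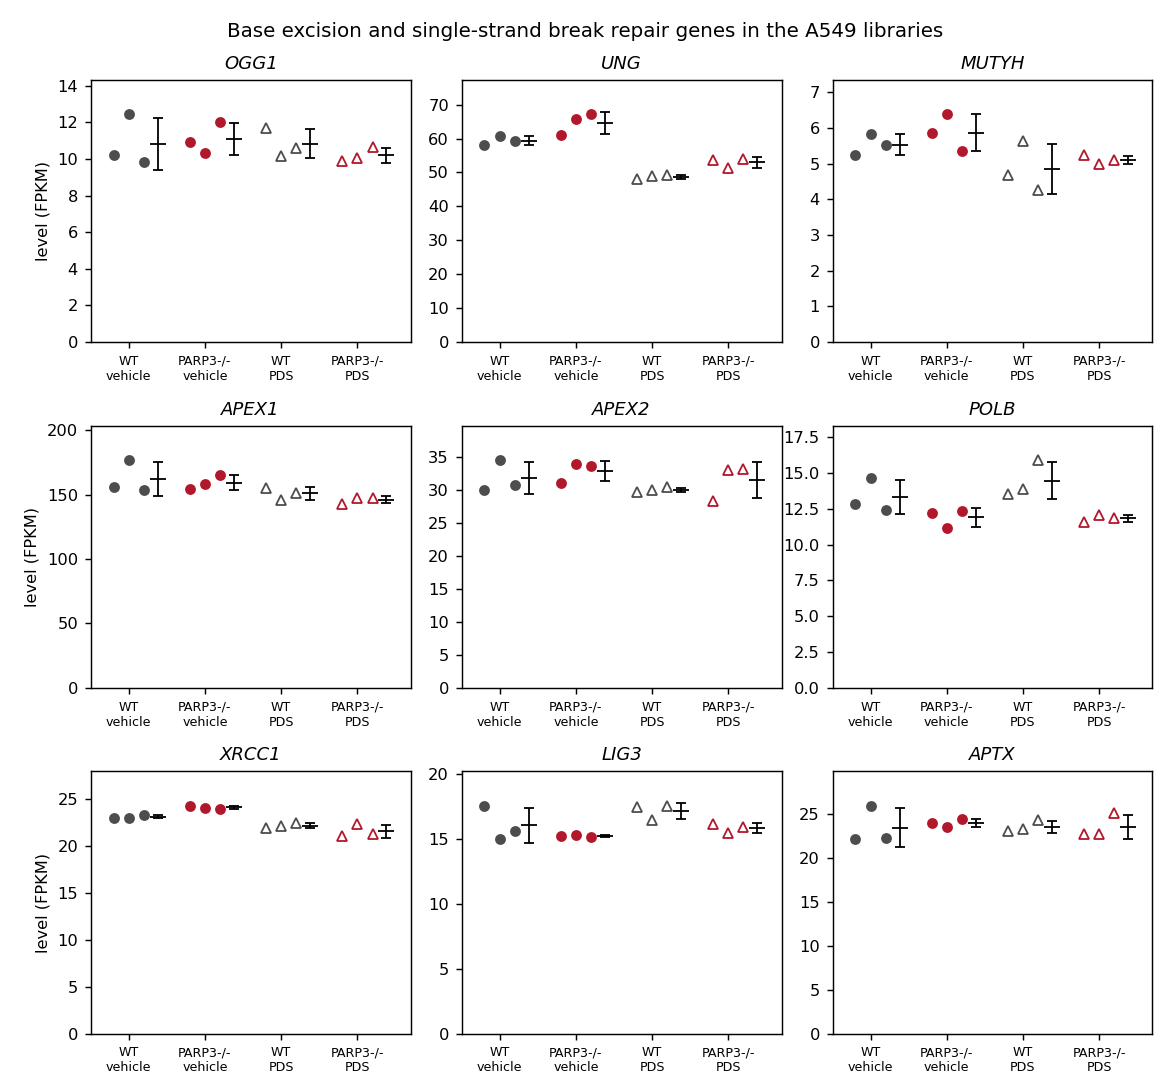
Levels of the 9 genes in FPKM (vertical axes from 0) in each of the 12 libraries, grouped by genotype and treatment (PDS, pyridostatin). Points are single libraries and the bars beside them are mean ± SD (n = 3). UNG was between 48.0 and 54.1 FPKM in the 6 pyridostatin libraries and between 58.0 and 67.2 FPKM in the 6 vehicle libraries.

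The groups were compared by limma on the log2(FPKM + 1) scale, one that understates the fold of low genes, and a gene was called at a Benjamini-Hochberg adjusted p under 0.05 over all 11881 genes. None of the 9 genes passed an absolute log2 fold change of 1 in any comparison. With pyridostatin, averaged over the genotypes, 2 of the 9 genes were called, both lower (UNG and XRCC1), where 13.9% of all tested genes were called. In wild type alone 1 of 9 was called (UNG, lower), with 4.17% of all genes called, and in PARP3-/- cells 2 of 9 were called (UNG and XRCC1, both lower), with 5.56% of all genes called. The median difference of the 9 genes with pyridostatin was −0.07 on the log2 scale against 0.00 for all genes, and 7 of the 9 differences were negative. Between the genotypes, 0 of 9 genes were called with vehicle (9.41% of all genes). There, 1 of the 9 had an unadjusted p under 0.05 in limma, as did 2564 of the 11881 tested genes. By genotype, 1 of 9 was called with pyridostatin (10.9%) and 2 of 9 in the average over treatments (19.1%). Groups of 3 libraries did not overlap for 24.2% of all tested genes by genotype with vehicle, 35.2% by genotype with pyridostatin, 23.1% by treatment in wild type and 32.3% in PARP3-/-, and the 6 pyridostatin libraries did not overlap the 6 vehicle libraries for 6.66%. The comparisons within a treatment or a genotype share libraries and are not independent of each other.

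UNG encodes the uracil-DNA glycosylase, whose transcript is known to be highest around S phase. With vehicle it was at 58.0, 60.7 and 59.3 FPKM in the 3 wild-type libraries and at 60.9, 65.8 and 67.2 FPKM in the 3 libraries labelled PARP3-/-. With pyridostatin it was at 48.0, 48.9 and 49.1 FPKM in wild type and at 53.8, 51.2 and 54.1 FPKM in PARP3-/-. All 6 pyridostatin libraries lay below all 6 vehicle libraries, and within each treatment the libraries labelled PARP3-/- lay above those of wild type.

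The mean of UNG fell by 17.9% with pyridostatin in wild type and by 18.0% in PARP3-/-. The difference was −0.28 on the log2 scale in wild type (SE 0.0412, adjusted p = 0.00412), −0.28 in PARP3-/- (SE 0.0412, adjusted p = 0.00338) and −0.28 in the average (SE 0.0291, adjusted p = 1.73e-04). The response of PARP3-/- cells minus that of wild type was −0.001 on this scale, with a 95% interval from −0.130 to 0.128. The fall was called in both genotypes under all 20 other settings, leaving out replicate 2 of wild type with vehicle included. By genotype, UNG was 0.12 higher on the log2 scale in PARP3-/- in the average over treatments (SE 0.0291, adjusted p = 0.0144). The genotype difference was 0.12 with vehicle (adjusted p = 0.102) and 0.12 with pyridostatin (adjusted p = 0.0946), and shifting the libraries to a common median brought the average to 0.09 with an adjusted p of 0.0874.

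The other glycosylases were not called in any comparison. OGG1 ranged from 9.85 to 12.5 FPKM over the 12 libraries, with a difference of −0.05 on the log2 scale with pyridostatin and −0.02 by genotype, both as averages. MUTYH ranged from 4.27 to 6.40 FPKM. Its mean was 5.54 ± 0.286 and 5.87 ± 0.519 FPKM with vehicle, and 4.86 ± 0.703 and 5.11 ± 0.122 FPKM with pyridostatin, for wild type and PARP3-/- in turn. The averaged difference of MUTYH with pyridostatin was −0.16 on the log2 scale with a 95% interval from −0.294 to −0.0363 (adjusted p = 0.0883). Without replicate 2 of wild type with pyridostatin, the highest of its group, it was −0.21 (adjusted p = 0.0192). It was also called with quantile normalization (−0.20, adjusted p = 0.0455) and with a common median (−0.19, adjusted p = 0.0441). MUTYH rests on few reads, approximately 207 to 331 per library, which gives a counting error of 6.94% in the lowest library. In GENCODE, 13.7% of the exonic bases of MUTYH overlap TOE1 on the opposite strand and 8.4% of those of OGG1 overlap CAMK1, and the sources used here do not say whether reads were assigned by strand.

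The AP endonucleases were not called in any comparison either. APEX1, which also acts as a redox factor, was at 162 ± 13.0 FPKM with vehicle and 151 ± 4.95 FPKM with pyridostatin in wild type, and at 159 ± 5.74 and 146 ± 2.68 FPKM in PARP3-/-. The groups overlapped in wild type and did not overlap in PARP3-/-, where 32.3% of all tested genes did not overlap. The averaged difference with pyridostatin was −0.11 on the log2 scale, with a 95% interval from −0.198 to −0.0270 (adjusted p = 0.0805). In PARP3-/- it was −0.12 (adjusted p = 0.240). When replicate 2 of wild type with vehicle was left out of the model, this difference stayed at −0.12 and the adjusted p was 0.0426. That library enters this comparison only through the spread estimates and the adjustment over all genes. Without it 1559 genes were called in PARP3-/-, against 661 with it. APEX2 ranged from 28.3 to 34.6 FPKM, and its averaged differences were −0.07 with pyridostatin and 0.06 by genotype on the log2 scale.

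XRCC1, the scaffold that binds POLB, LIG3 and APTX, was at 23.1, 23.0 and 23.4 FPKM with vehicle and at 21.9, 22.2 and 22.5 FPKM with pyridostatin in wild type. In PARP3-/- it was at 24.3, 24.1 and 24.0 FPKM with vehicle and at 21.1, 22.3 and 21.3 FPKM with pyridostatin. The pyridostatin libraries lay below the vehicle libraries in both genotypes, and the gap was wider in PARP3-/-, where the vehicle libraries were the highest of all. The difference was −0.16 on the log2 scale in PARP3-/- (SE 0.0310, adjusted p = 0.0168), −0.06 in wild type (adjusted p = 0.319) and −0.11 in the average (SE 0.0219, adjusted p = 0.00909). The responses of the genotypes differed by −0.10 on this scale, with a 95% interval from −0.194 to −9.47e-05 and an adjusted p of 0.999, so a difference in response was not called. The averaged call was made in all 19 other settings. The call in PARP3-/- was lost when any one of 5 of the 6 PARP3-/- libraries was left out (vehicle replicates 1, 2 and 3, pyridostatin replicates 1 and 3), with adjusted p from 0.0530 to 0.0783. Of the exonic bases of XRCC1 in GENCODE, 8.0% overlap L34079.1 on the same strand. On the opposite strand, 9.5% overlap L34079.3 and 2.4% overlap L34079.2. The part of these genes in the FPKM of XRCC1 was not tested.

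POLB encodes DNA polymerase beta, which fills the gap of a single base. It was at 12.82, 14.66 and 12.42 FPKM with vehicle and at 13.55, 13.85 and 15.91 FPKM with pyridostatin in wild type. In PARP3-/- it was at 12.19, 11.12 and 12.36 FPKM with vehicle and at 11.57, 12.04 and 11.84 FPKM with pyridostatin. The libraries labelled PARP3-/- were below those of wild type in both treatments, with vehicle by 12.36 against 12.42 FPKM in the nearest libraries. The genotype difference was −0.21 on the log2 scale in the average over treatments (SE 0.0503, adjusted p = 0.0153), −0.26 with pyridostatin (SE 0.0711, adjusted p = 0.0380) and −0.15 with vehicle (adjusted p = 0.265). The genotype difference with pyridostatin differed from that with vehicle by −0.12, with a 95% interval from −0.340 to 0.105. The averaged call was made in all 19 other settings. The call with pyridostatin was made in 11 of 20 and was lost when any one of 7 libraries was left out (vehicle replicates 1 and 3 and all 3 pyridostatin replicates of PARP3-/-, and pyridostatin replicates 2 and 3 of wild type), with adjusted p from 0.0512 to 0.141. POLB was covered by approximately 329 to 531 reads per library, a counting error of 5.51% in the lowest. CD14 was higher in the libraries labelled PARP3-/- (0.50 on the log2 scale in the average), and the part of the epithelial, blood cell and fibroblast markers in the genotype differences of UNG and POLB was not tested.

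LIG3 and APTX, the ligase and the end-cleaning enzyme of the last step, were not called in any comparison. LIG3 was at 16.1 ± 1.33 and 15.2 ± 0.0681 FPKM with vehicle and at 17.2 ± 0.636 and 15.8 ± 0.372 FPKM with pyridostatin, for wild type and PARP3-/- in turn. Its averaged genotype difference was −0.09 on the log2 scale (adjusted p = 0.128). It was −0.11 without replicate 2 of wild type with vehicle (adjusted p = 0.0303), in which LIG3 was the lowest of its group, −0.12 with quantile normalization (adjusted p = 0.0490) and −0.12 with a common median (adjusted p = 0.0407). The averaged difference of LIG3 with pyridostatin was 0.07 (adjusted p = 0.221), and without replicate 1 of wild type with vehicle it was 0.10 (adjusted p = 0.0357). In GENCODE, 43.8% of the exonic bases of LIG3 overlap RFFL on the opposite strand. APTX stayed between 22.1 and 25.9 FPKM, and its averaged differences were −0.01 with pyridostatin and 0.02 by genotype, with 95% intervals from −0.105 to 0.0854 and from −0.0789 to 0.111.

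**Figure D2:**
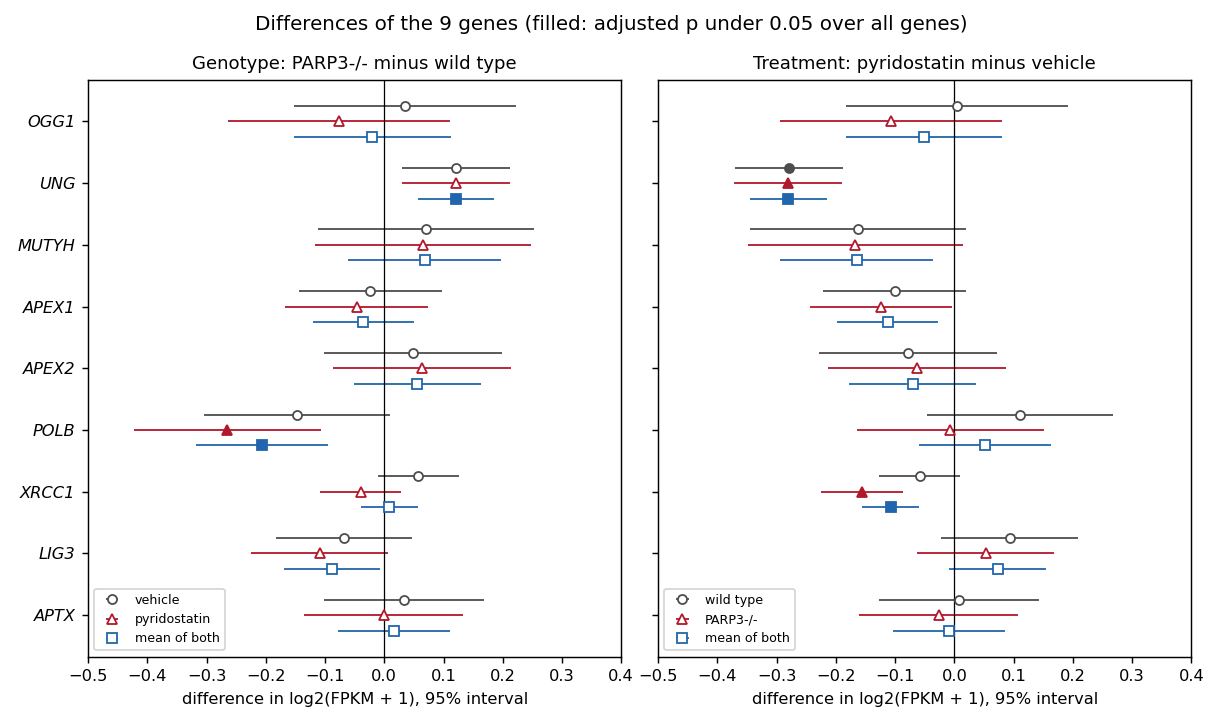
Differences in log2(FPKM + 1) of the 9 genes (horizontal axes) with 95% intervals from limma, by genotype on the left and by treatment on the right, each in both backgrounds and as their mean. Filled symbols mark an adjusted p under 0.05 over all tested genes. UNG lies at −0.28 with pyridostatin in both genotypes, and POLB at −0.26 by genotype with pyridostatin (called) and −0.15 with vehicle (not called).

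No interaction of genotype and pyridostatin was called by limma for the 9 genes or for any tested gene (0% called), and 521 of the 11881 genes had an unadjusted p under 0.05. Among the 9 genes this held for XRCC1 alone.

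The other genes of these pathways were taken from a list of 35, chosen with earlier results of these data known. Of these, 33 passed the filter on low values. NEIL1 and APLF did not pass it. With pyridostatin, averaged over the genotypes, 12 of the 33 were called and all 12 were lower, where 13.9% of all tested genes were called. In PARP3-/- cells 10 were called (5.56% of all genes) and in wild type 2 (4.17% of all genes), all lower. The difference between the genotypes was not called for any of them. By genotype, 2 of 33 were called with vehicle, 2 with pyridostatin and 3 in the average, all lower in PARP3-/-. These counts were no larger a share than the 9.41%, 10.9% and 19.1% of all genes called.

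Most of these other genes that were called lower with pyridostatin in the average belong to long-patch synthesis, which shares its enzymes with DNA replication. Of its 16 genes, 9 were called in the average, all lower. The median difference of all 16 was −0.12 on the log2 scale against 0.00 for all genes, and 15 of the 16 differences were negative. Among the 9 called were the flap endonuclease FEN1 (−0.21, adjusted p = 0.00293) and the ligase LIG1 (−0.11, adjusted p = 0.0129). The rest were the polymerase subunits POLD1 (−0.13), POLD3 (−0.16) and POLE2 (−0.28), and the clamp-loader subunits RFC2 (−0.19), RFC3 (−0.22), RFC4 (−0.31) and RFC5 (−0.17). FEN1 was at 67.0 to 74.6 FPKM in the 6 vehicle libraries and 57.3 to 64.2 FPKM in the 6 pyridostatin libraries, so the treatments did not overlap. PCNA, the sliding clamp and a known p53 target, had a difference of 0.06 (adjusted p = 0.160). It was called higher with quantile normalization and when replicate 2 of wild type with vehicle was left out. In PARP3-/- alone 8 of the 16 were called and in wild type 0, and leaving out replicate 3 of PARP3-/- with pyridostatin left 1 of 16 called in PARP3-/-. At an unadjusted p under 0.05 there were 9 in PARP3-/- and 8 in wild type. Of all 11881 tested genes, 2329 in PARP3-/- and 2410 in wild type had such a p.

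Outside long-patch synthesis, NEIL3, a glycosylase of S phase, was lower both by treatment and by genotype. It was at 15.7, 15.8 and 17.0 FPKM with vehicle and 12.6, 13.4 and 12.8 FPKM with pyridostatin in wild type. In PARP3-/- it was at 12.8, 13.3 and 12.7 FPKM with vehicle and 10.7, 10.2 and 10.8 FPKM with pyridostatin. Averaged, its difference was −0.29 with pyridostatin (adjusted p = 1.69e-04) and −0.28 by genotype (adjusted p = 5.91e-05), so by genotype it moved in the opposite direction to UNG. DUT, which removes dUTP so that less uracil enters DNA, was lower with pyridostatin (−0.30 on the log2 scale, adjusted p = 0.00264), the largest difference among the 3 nucleotide-pool genes. NUDT1 had the largest of them by genotype, −0.10 (adjusted p = 0.418). PARP1, which senses single-strand breaks, was lower with pyridostatin in the average (−0.09, adjusted p = 0.0431). It was −0.16 in PARP3-/- (adjusted p = 0.0258) and −0.01 in wild type (adjusted p = 0.879), where its mean was 61.1 FPKM with vehicle and 60.6 FPKM with pyridostatin. The calls outside long-patch synthesis depended on the setting. With a pseudocount of 0.1, 11 of the 33 genes were called in the average, 9 of them of long-patch synthesis. Without pyridostatin replicate 3 of PARP3-/-, 2 of the 33 were called in PARP3-/-, 1 of them of long-patch synthesis. Whether PARP1 kept its call in these settings was not examined. TDP1, which cleans 3′ ends, was at −0.11 with pyridostatin (adjusted p = 0.0571). TDP2, which frees 5′ ends from topoisomerase 2, was lower by genotype (−0.25, adjusted p = 8.17e-04), as was the thymine glycosylase TDG (−0.15, adjusted p = 0.0204). Among the long-patch genes, RFC4 had the largest genotype difference, −0.09 (adjusted p = 0.334).

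**Figure D3:**
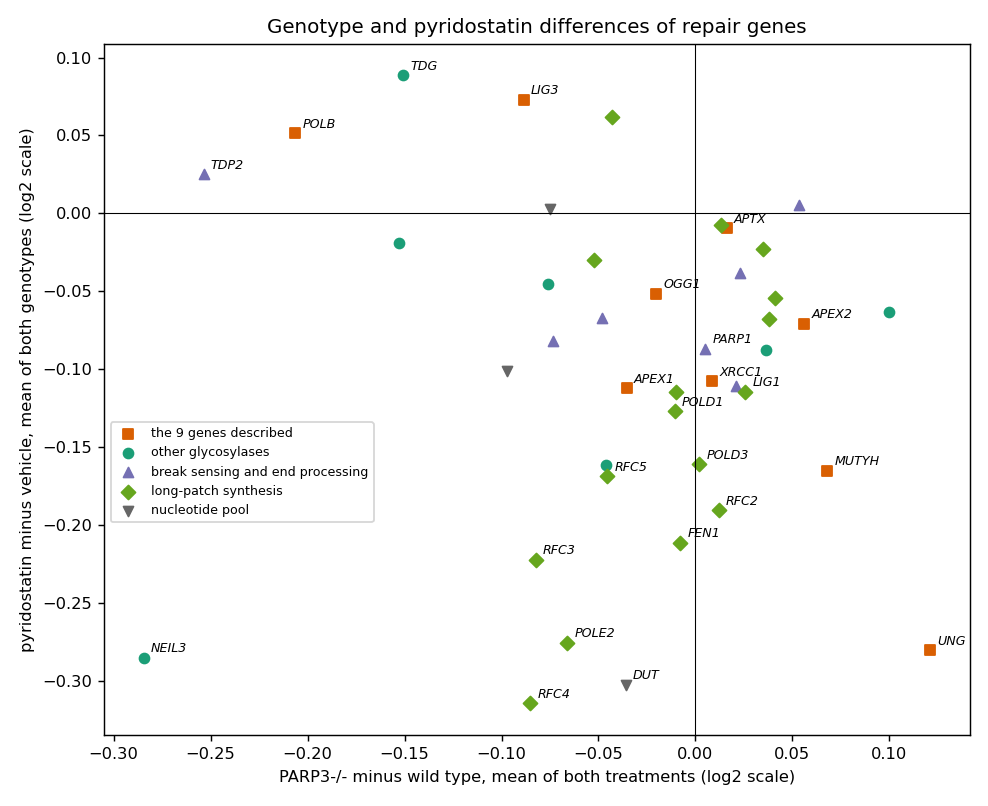
Averaged genotype difference (horizontal axis) against averaged pyridostatin difference (vertical axis), both in log2(FPKM + 1), for the 9 genes and 33 other genes of the same pathways. Labels mark the 9 genes and those called on either axis. UNG lies at −0.28 with pyridostatin and 0.12 by genotype, and NEIL3 at −0.29 and −0.28.

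Of 12 markers of cell proliferation, 7 were called with pyridostatin in the average, all 7 lower, where 13.9% of all genes were called. The summed level of the 12 markers was 953 to 980 FPKM in wild type and 927 to 962 FPKM in PARP3-/- with vehicle, and 899 to 928 and 857 to 875 FPKM with pyridostatin. Among the 7 were MCM2 (−0.32, adjusted p = 4.43e-05) and CDC6 (−0.27, adjusted p = 3.17e-05). Of the other 5, TOP2A (0.02) and TYMS (0.04) had positive differences that were not called, and quantile normalization called 5 lower and 1 higher. In wild type alone 2 of the 12 were called (4.17% of all genes) and in PARP3-/- 4 (5.56% of all genes), all lower. By genotype 3 of the 12 were called in the average, all lower, where 19.1% of all genes were called. This count was 1 without vehicle replicate 1, pyridostatin replicate 2 or pyridostatin replicate 3 of PARP3-/-, and 1 without pyridostatin replicate 1 of wild type. It was 1 with quantile normalization and 6 with a common median. All 6 p53 targets tested were higher with pyridostatin, with a median of 0.88 on the log2 scale. The part of proliferation in the differences of UNG, XRCC1 and the long-patch genes was not tested.

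The genes whose levels followed the called genes most closely over the 12 libraries were named from Pearson's r of log2(FPKM + 1) over all tested genes. For UNG they were PTPLAD1 (r = 0.974), the histone chaperone ASF1B (0.958) and TMEM156 (0.957). For XRCC1 they were the histone chaperone NASP (0.946), NVL (0.941) and DNAJC9 (0.920). For POLB they were the ribosomal protein genes RPS23 (0.927) and RPL37 (0.921) and the nucleolar gene NOP16 (0.913). The 12 libraries share the groups, and these values are the highest of many. Among the 9 genes themselves, r was highest for APEX1 and OGG1 (0.800), XRCC1 and UNG (0.757) and APTX and OGG1 (0.715), and lowest for LIG3 and MUTYH (−0.697). OGG1 (12.5 FPKM), APEX1 (177 FPKM) and APTX (25.9 FPKM) each had their highest value in replicate 2 of wild type with vehicle, the library that stood apart. The part of that library in these correlations was not tested.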

How the data were processed

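Libraries were made from poly(A) RNA with a stranded kit and sequenced as single-end reads of 75 bases. The submitters' processing notes name bcl2fastq 2.16, STAR 2.5, Cufflinks and the builds hg19 and mm9, without roles. The authors deposited FPKM values, 1 column per library without pooling, and tested counts with DESeq2 themselves; those counts were not analysed here. Groups and replicate numbers follow the labels. log2(FPKM + 1) was fitted with limma 3.58.1 in R 4.3.3 as 1 model of the 4 groups (eBayes with a trend, no block, no scaling between libraries) over genes averaging 1 FPKM or more, with Benjamini-Hochberg adjustment. The procedure was checked on simulated data. FPKM gives no counts, so reads were approximated from the lowest values with GENCODE release 29 lengths, and only 51.8% to 56.4% of low values lay within 0.1 of a whole read, so no count test was run and read numbers are rough. Promoters are RefSeq sequences on GRCh38.p14. Python 3.11.15, numpy 2.4.6, pandas 2.3.3 and matplotlib 3.10.9 were used. All 9 genes are named, with other repair genes that were called or had the largest averaged difference of their group, and the 3 closest genes of each called member. PCNA and the proliferation markers were named after their values were seen. The 9 genes and all lists were chosen with earlier results of these data known. Alternatives were a pseudocount of 0.1, no filter or a minimum average of 5 FPKM, quantile normalization, a common median, only the libraries compared, no trend, a replicate block and each library left out.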

Additional observations from a re-analysis of the deposited data

Results flagged for a closer look

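PARP1, which senses single-strand breaks and starts their repair, was at 59.6 to 62.4 FPKM in wild type and 64.0 to 65.2 FPKM in PARP3-/- with vehicle, so all libraries labelled PARP3-/- were higher, where 24.2% of all tested genes had groups that did not overlap. With pyridostatin it was at 58.6 to 63.3 FPKM in wild type and 57.0 to 58.5 FPKM in PARP3-/-, so all were lower, where 35.2% of all tested genes did not overlap. Neither genotype difference was called: it was 0.08 on the log2 scale with vehicle (adjusted p = 0.224) and −0.07 with pyridostatin (adjusted p = 0.270). The test of the difference itself, the interaction in limma, gave −0.15 on the log2 scale with a 95% interval from −0.259 to −0.0379, and with an adjusted p of 0.999 it was not called. PARP1 was picked from the 9 genes and the 35 others because its genotype groups separated in opposite directions. The interval is therefore not independent of that choice, and the share of all tested genes that separate so was not counted.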

How the results depend on the processing

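Over 20 other settings, 1146 of 1233 alternative values of the 9 genes' differences kept their sign and their side of the threshold, 61 changed sign with neither value called, 15 lost and 11 gained a call, and 0 reversed a called direction. By genotype with vehicle, the count of the 9 genes called was 1 with quantile normalization (UNG) and 0 to 1 when single libraries were left out. By genotype with pyridostatin it was 0 with no filter, 0 with the replicate block and 2 with only the libraries compared, and 0 to 1 when single libraries were left out. With pyridostatin in PARP3-/- it was 1 to 3 when single libraries were left out. The cause was not tested. The replicate numbers were not shown to pair the cultures: correlations of same-numbered deviations ran from −0.120 to 0.216. With the replicate block, POLB by genotype with pyridostatin had an adjusted p of 0.0625, and no other call among the 9 genes changed.

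All-gene counts ranged from 532 to 1644 (genotype, vehicle), 806 to 2298 (genotype, pyridostatin), 1606 to 3229 (genotype, average), 65 to 706 (pyridostatin in wild type), 254 to 1559 (in PARP3-/-), 1115 to 2316 (average) and 0 to 1 (interaction), and each highest count but the last was reached without replicate 2 of wild type with vehicle. The lowest counts came from the fit of only the libraries compared (532 and 65), from a mean of at least 5 FPKM (1606), and from leaving out pyridostatin replicates 3 (806) and 1 (1115) of wild type and 3 (254) of PARP3-/-. Of the genes called, the share that was higher was 63.7% by genotype and 55.3% with pyridostatin (averages), 52.2% and 51.7% with quantile normalization, and 45.7% and 39.9% with a common median. Of the 33 other repair genes, 11 to 13 were called with pyridostatin in the average, 2 to 13 in PARP3-/- and 0 to 5 in wild type. Depth limits MUTYH and POLB most.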
